A study of Mus musculus with 18 samples.

Results

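The genes described here are the replication-dependent histone genes of the mouse, followed in CD8+ T cells before and during activation. Every protein-coding row of the count table whose GENCODE M21 symbol starts with Hist1h, Hist2h, Hist3h or Hist4h was taken, which gave 67 of 55487 genes. They code for the linker histone H1 (6 genes) and for the core histones H2A (18), H2B (18), H3 (12) and H4 (13). The Hist1 cluster on chromosome 13 holds 54 of them, the Hist2 cluster on chromosome 3 holds 10, the Hist3 cluster on chromosome 11 holds 2, and Hist4h4 lies alone on chromosome 6. The 3 histone pseudogenes of the same naming were not included.

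Spleens and lymph nodes of wild type C57BL/6J mice had given CD8+ T cells, which were sorted by 41BB (CD137, encoded by Tnfrsf9), a costimulatory receptor, into 41BB+ cells, called Tpam in the study, and 41BB- cells, its conventional comparison. RNA was taken at 0 h without activation, or after 24 h or 72 h of activation with CD3 and CD28 antibody beads at a ratio of 1:2. All 18 libraries were made from total RNA, in 6 groups of 3 biological replicates that carry an experiment number from 1 to 3. The sources used here do not say whether a replicate was 1 animal or a pool, so the p-values measure the spread between these samples. Tnfrsf9 itself stood at 373 to 421 CPM (counts per 1000000 counts of the library) in 41BB+ cells at 0 h and at 4.96 to 8.45 CPM in 41BB- cells. At 24 h the order was turned, at 129 to 149 CPM against 172 to 194 CPM, and at 72 h it was 11.6 to 33.8 CPM against 44.0 to 61.3 CPM.

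Replication-dependent histones package newly made DNA, and their genes are expressed mainly in S phase. Their mRNAs are the main animal mRNAs without a poly(A) tail: they end just after a conserved stem-loop, which is bound by the stem-loop binding protein (SLBP) and cut with the help of the U7 small nuclear RNA. When DNA synthesis stops these mRNAs are degraded, with uridylation by the enzymes Tut4 and Tut7 as one step. Resting T cells rarely divide, and T cells activated through the T cell receptor enter rapid cycles of division. Some histone genes can also give polyadenylated transcripts that run past the stem-loop, which is known above all for cells outside S phase.

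The stem-loop is what these genes share in their transcripts, so examples from each family are shown first. A stem-loop pattern (GG, any 2 bases, CTTTT, any base, AG, any 2 bases and CC) was searched on the sense strand of the GENCODE M21 transcripts (GRCm38) and found in 44 of the 67 members. It was found in 72 of 21901 protein-coding genes in all (0.329%), of which 28 were not members. The capitals mark the match, with 5 bases on each side, 5′ to 3′, in DNA letters.
Hist1h1c: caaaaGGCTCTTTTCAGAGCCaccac
Hist1h1e: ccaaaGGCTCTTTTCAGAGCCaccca
Hist1h2ad: acaaaGGCTCTTTTCAGAGCCatcca
Hist1h2bf: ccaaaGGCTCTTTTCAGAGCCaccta
Hist1h2bk: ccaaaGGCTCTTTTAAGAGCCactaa
Hist2h2ac: aaaaaGGCTCTTTTTAGAGCCaccaa
Hist1h3b: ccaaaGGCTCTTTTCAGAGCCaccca
Hist1h3e: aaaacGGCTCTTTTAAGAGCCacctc
Hist1h4d: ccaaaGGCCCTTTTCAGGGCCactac
Hist1h4b: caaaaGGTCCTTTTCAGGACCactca
Hist2h4: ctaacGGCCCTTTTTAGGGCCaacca
Hist4h4: acaaaGGCCCTTTTCAGGGCCcacaa
The form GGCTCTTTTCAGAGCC was carried by 26 members, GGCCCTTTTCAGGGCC by 7 and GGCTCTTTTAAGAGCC by 6. The other matching members had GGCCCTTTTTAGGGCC (2), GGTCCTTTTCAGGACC (2) or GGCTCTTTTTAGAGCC (1). In each form the bases before and after the loop are complementary, so that the forms differ in bases of the stem and in 1 base of the loop. Of the 23 members without a match, 11 have an annotated transcript that holds the coding part only, so the annotation gives no sequence there to search.

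The promoters differed between families. RefSeq windows of 250 bases before to 50 bases after the start (GRCm38.p6) matched 61 members, and 4 motifs were searched on both strands. CCAAT was found in 52 of them (85.2%, beside 37.4% of 32851 promoters of the same length), in every matched H1, H2A, H2B and H3 promoter but in only 3 of 12 H4 promoters. TATAAA was found in 35 (57.4%, beside 13.6%). The octamer ATTTGCAT was found in 13 (21.3%, beside 1.74%), of which 7 were H2A and 6 were H2B genes. AAACACA, a motif known from H1 promoters, was found in 9 (14.8%, beside 7.18%), of which 5 were H1 genes. These are matches of letters and say nothing of binding. The promoters below belong to 2 linker histone genes that differed in opposite directions between the populations at 0 h, and to an H2A gene that shares its promoter with an H2B gene of another time course. The window of Hist1h1c is chr13:23738557-23738856, + strand, that of Hist1h1b chr13:21780576-21780875, - strand, and that of Hist1h2ad chr13:23574131-23574430, + strand. Capitals mark matches of these motifs on either strand.
Hist1h1c: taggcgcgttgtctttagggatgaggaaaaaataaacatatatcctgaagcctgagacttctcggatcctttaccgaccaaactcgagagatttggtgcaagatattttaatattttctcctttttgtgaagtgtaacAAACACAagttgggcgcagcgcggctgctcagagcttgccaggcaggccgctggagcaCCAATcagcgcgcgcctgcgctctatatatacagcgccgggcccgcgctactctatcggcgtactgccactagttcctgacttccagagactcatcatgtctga
Hist1h1b: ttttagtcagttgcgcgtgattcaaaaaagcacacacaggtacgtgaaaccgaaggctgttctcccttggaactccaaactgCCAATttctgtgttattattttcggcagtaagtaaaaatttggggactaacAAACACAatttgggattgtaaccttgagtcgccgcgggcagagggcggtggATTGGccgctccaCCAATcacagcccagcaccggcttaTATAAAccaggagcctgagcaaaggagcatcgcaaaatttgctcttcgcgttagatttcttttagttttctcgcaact
Hist1h2ad: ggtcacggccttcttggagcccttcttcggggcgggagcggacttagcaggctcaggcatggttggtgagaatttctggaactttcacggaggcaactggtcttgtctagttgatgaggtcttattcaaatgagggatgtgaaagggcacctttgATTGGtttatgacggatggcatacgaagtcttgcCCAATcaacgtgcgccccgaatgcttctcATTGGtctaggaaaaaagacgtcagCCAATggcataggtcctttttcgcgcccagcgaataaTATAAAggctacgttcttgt
Hist1h2bf starts on the other strand within the same 300 bases: its own window overlaps that of Hist1h2ad by 273 bases. In all, 9 pairs of an H2A and an H2B gene face away from each other in this way. Since both strands were searched, a motif in a shared stretch was counted for both genes of a pair. The H2A and H2B motif counts are therefore not all of separate promoters.

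Library totals ran from 3085241 to 4239795 counts (median 3524157.5), and the members took between 0.0650% and 2.23% of a library. A common background touches all values below, since many members are near copies of each other: a median of 49.5% of a member's windows of 50 bases was also found in other annotated genes, 32 members had over 50% shared, and 9 had under 10% shared. The sources used here do not say how reads with several matches were counted, so the split of counts among close copies is uncertain. Of members given singly below, the shared part was 100% in Hist2h2aa2, 87.6% in Hist1h3i and 86.4% in Hist1h2bn. It was 79.7% in Hist2h3b and 71.5% in Hist1h4k. Hist2h3c1, Hist2h2aa1 and Hist2h2bb are wholly overlapped by another gene on the same strand and had 0, 1 and 0 counts in all 18 libraries. All 6 CD8 T cell markers were detected in every group, and their sum moved with the groups. It was 1900.5 to 2088 CPM in 41BB+ and 3109 to 3344 CPM in 41BB- cells at 0 h, 1136 to 1223 and 1472 to 1513 CPM at 24 h, and 2244 to 2682 and 1823 to 2223 CPM at 72 h. All 6 were called lower in 41BB+ cells at 0 h, and 3 were called higher at 72 h. Markers of other cells moved with some groups: the 6 B cell markers summed to 95.2 to 98.4 CPM in 41BB+ and 232 to 256 CPM in 41BB- cells at 0 h and to 420.3 to 592 CPM over the 72 h libraries, nearly all of it Ighm. The 4 NK cell markers summed to 540.5 to 610.5 CPM in 41BB+ and 55.8 to 65.1 CPM in 41BB- cells at 0 h, nearly all of it Eomes. Of the other B cell markers, Cd79a was at most 1.32 CPM, Pax5 at most 4.42 CPM and Cd79b at most 12.3 CPM. The NK cell marker Ncr1 was at most 2.39 CPM. The 3 CD4 T cell markers summed to 0 to 5.72 CPM over the 0 h libraries and 1.99 to 6.63 CPM at 24 h, and to 29.9 to 53.5 CPM in 41BB+ and 43.7 to 50.6 CPM in 41BB- cells at 72 h, nearly all of it Foxp3 and Zbtb7b. Cd4 itself was at most 1.28 CPM. Of the 6 myeloid markers Itgam was at 0 in every library, and their sum was 1.91 to 13.5 CPM except at 67.3 CPM in the 41BB+ 24 h library of experiment 2. The part of these genes in the results was not tested. In bulk samples, fewer cells that express a gene and less RNA per cell cannot be told apart.

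The summed level of the members was low at 0 h, rose in both populations by 24 h and was highest in 41BB- cells at 72 h. At 0 h it was 965, 649.9 and 884 CPM in 41BB+ cells and 1009, 1065 and 1138 CPM in 41BB- cells, in the order of the experiments. At 24 h it was 12335, 10292 and 11018 CPM in 41BB+ cells and 7948, 5199 and 6252 CPM in 41BB- cells. At 72 h it was 11568, 12022 and 11704 CPM in 41BB+ cells and 16743, 22320.1 and 14508 CPM in 41BB- cells. The populations did not overlap at any of the 3 times, with 41BB- cells higher at 0 h and 72 h and 41BB+ cells higher at 24 h. The group means were 833 ± 163 and 1070.5 ± 64.7 CPM (SD, n = 3) at 0 h, 11215 ± 1036 and 6466 ± 1387 CPM at 24 h, and 11765 ± 233 and 17857 ± 4024 CPM at 72 h. The ratio of 41BB+ to 41BB- means was 0.778, 1.73 and 0.659. Within the experiments the ratio was 0.956, 0.610 and 0.777 at 0 h, 1.55, 1.98 and 1.76 at 24 h, and 0.691, 0.539 and 0.807 at 72 h, each time on the same side of 1. The rise from 0 h to 24 h was 13.5-fold in 41BB+ and 6.04-fold in 41BB- cells, and from 24 h to 72 h 1.05-fold and 2.76-fold. The lower sum of 41BB+ cells at 0 h rested on 1 gene, Hist1h1c: without it 41BB+ cells had a sum of 684 ± 173 CPM and 41BB- cells of 589 ± 15.1 CPM, and the groups overlapped. Without Hist1h1c the rise from 0 h to 24 h was 15.4-fold in 41BB+ and 10.2-fold in 41BB- cells.

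**Figure D1:**
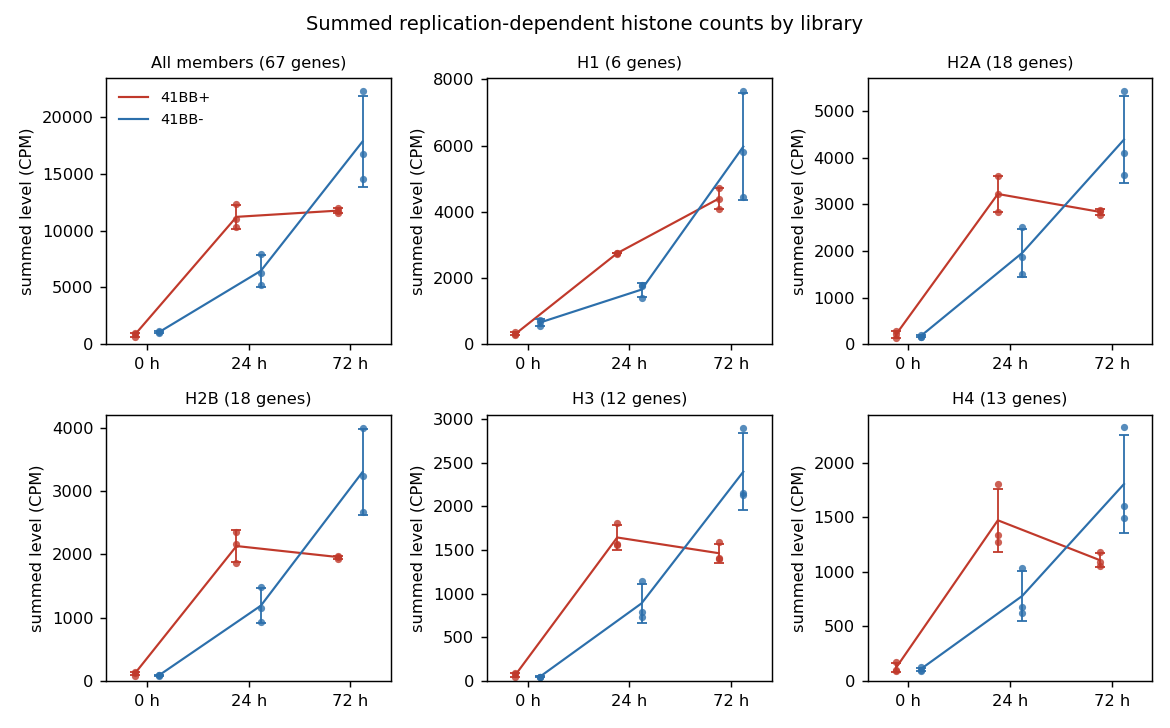
Summed level of the member genes in CPM, on a linear axis, by time for each library and for all members, H1 and the core histone families. Points are libraries and the lines join group means. 41BB+ libraries lie above 41BB- libraries at 24 h and below them at 72 h in the sum of all members.

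Nearly every tested histone gene rose with activation in both populations. By edgeR's quasi-likelihood test over 13150 genes, of which 61 were members, 59 members rose from 0 h to 24 h in 41BB+ cells and 0 fell, beside 18.1% of all tested genes that rose and 16.5% that fell. In 41BB- cells 58 rose and 1 fell, beside 29% and 27.6%. The median log2 fold change of the members was 4.39 and 4.14. Hist2h2be did not pass the test in either population, Hist3h2ba not in 41BB+ and Hist1h1c not in 41BB- cells. Both interaction terms and both later comparisons below share the 24 h libraries with these. The 6 members that were not tested had 0 counts (Hist3h2a, Hist2h3c1, Hist2h2bb), 1 count (Hist2h2aa1), 2 counts (Hist1h2aa) and 40 counts (Hist1h1t, the H1 gene of the testis) over the 18 libraries.

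At 24 h most tested histone genes were higher in 41BB+ cells. Of the 61 tested members, 43 were higher and 0 lower (70.5%, beside 1.67% of all tested genes that were higher and 1.07% that were lower), with a median log2 fold change of 0.95. They were 5 of 5 H1, 7 of 15 H2A, 14 of 17 H2B, 10 of 11 H3 and 7 of 13 H4 genes. The estimate was above 0 in 60 of 61, and an unadjusted p under 0.05 was reached by 59 upward and 0 downward. DESeq2 called 48 higher and 0 lower. The count depended on single libraries: it was 16 without the 41BB- library of experiment 2, 21 without the 41BB- library of experiment 3 and 24 without the 41BB+ library of experiment 1, all of them higher. Without the 41BB+ library of experiment 2, which had the higher myeloid markers, it was 35.

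At 72 h the order was the opposite. No tested member was higher in 41BB+ cells and 32 were lower (52.5%, beside 6.71% of all tested genes that were higher and 12.2% that were lower), with a median log2 fold change of -0.67. They were 1 of 5 H1, 6 of 15 H2A, 13 of 17 H2B, 8 of 11 H3 and 4 of 13 H4 genes. The unadjusted p was under 0.05 for 0 upward and 50 downward, and DESeq2 called 0 higher and 32 lower. With the experiments of each time as a block, 0 were higher and 52 lower. The count was 7 without the 41BB- library of experiment 2, which had the highest sum, and 13, 13 and 18 without the 41BB+ library of experiment 1, 2 or 3.

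Before activation few members differed. At 0 h 10 tested members were higher in 41BB+ cells and 1 was lower (16.4% and 1.64%), less than the 22.2% and 17.3% of all tested genes, so the counts are no result about the members. The 10 were Hist1h1b, Hist1h2ai, Hist1h2af, Hist1h2bk, Hist1h2bm, Hist1h2bp, Hist1h2bj, Hist1h3a, Hist1h3c and Hist1h4b, and the gene that was lower was Hist1h1c. Without the 41BB+ 0 h library of experiment 3 the calls of Hist1h2ai, Hist1h2af, Hist1h2bm, Hist1h2bp, Hist1h2bj and Hist1h3c were lost (adjusted p 0.056 to 0.18). With the experiments as a block the counts were 17 higher and 4 lower. They were 19 in all without the 41BB+ library of experiment 2, 5 without that of experiment 3 and 7 without the 41BB- library of experiment 3.

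The time course after 24 h separated the populations. From 24 h to 72 h, 59 of 61 members rose in 41BB- cells and 0 fell (beside 22.6% of all tested genes that rose and 18.2% that fell), with a median log2 fold change of 1.52. In 41BB+ cells 8 rose and 6 fell (13.1% and 9.84%), less than the 26.2% and 26.3% of all tested genes, with a median of -0.13. The test of the difference between these changes called 59 members lower and 0 higher in 41BB+ cells (beside 11.4% and 6.1%), with a median difference of -1.58. Hist2h2ab and Hist2h2be were the 2 tested members without a call. The same test over 0 h to 24 h called 11 higher and 0 lower (18%, beside 9.03% and 14%), with a median difference of 0.31. With a block within each time it called 15 higher and 3 lower, and without single libraries 6 to 14 in all, with 7 without the 41BB+ 0 h library of experiment 2 or 3, the 41BB- 0 h library of experiment 1 or the 41BB+ 24 h library of experiment 1, and 6 without the 41BB- 24 h library of experiment 3. The 8 and 6 of 41BB+ cells were 6 and 7 with library totals as the only scaling and 5 and 10 with no filter on low counts. They were 6 in all without the 41BB+ 24 h library of experiment 1 or the 72 h library of experiment 1 or 2, 8 without the 72 h library of experiment 3, and 3 higher and 7 lower without the 24 h library of experiment 2.

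**Figure D2:**
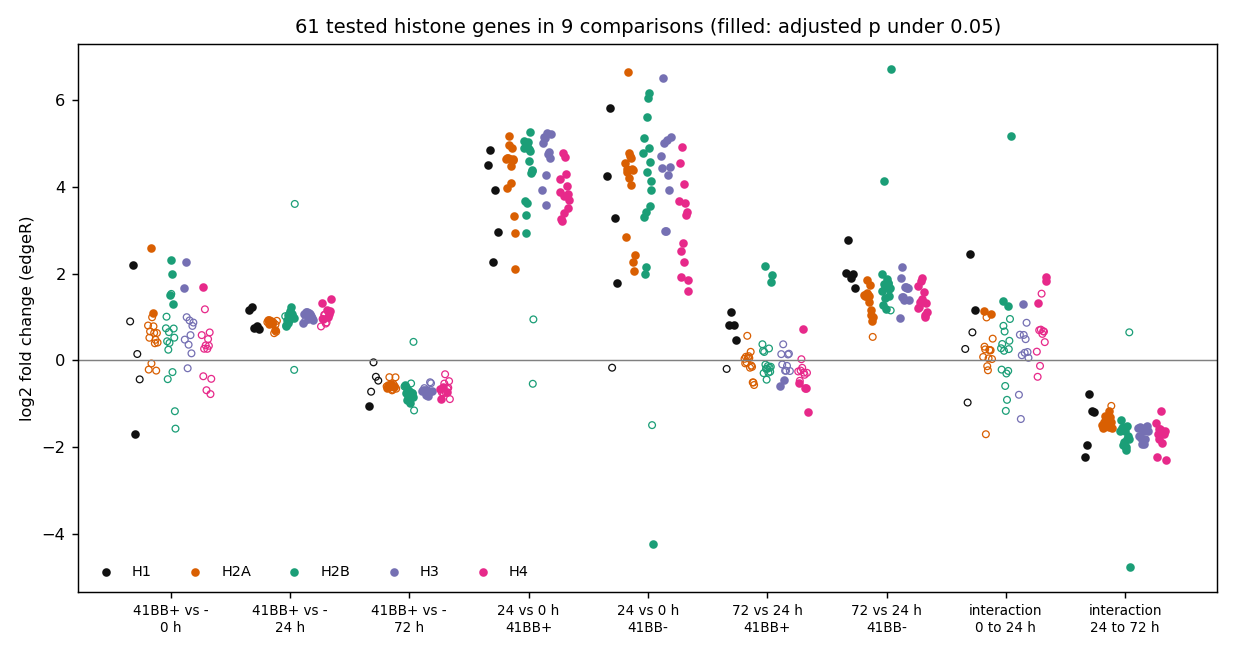
Log2 fold change of each of the 61 tested members in the 9 comparisons, by family. Filled points passed the test at an adjusted p under 0.05 and open points did not. In the comparison of the populations, 60 of 61 points lie above 0 at 24 h, and the points of Hist3h2ba rest on 1 count in the 41BB- group at 24 h.

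Linker histones bind the DNA where it enters and leaves the nucleosome, and 1 of them, Hist1h1c, had the lowest adjusted p of the members at 0 h. Hist1h1c (H1.2 in the protein naming, chromosome 13, 23738808 to 23740367, plus strand, 1 exon) stood at 127, 154 and 166 CPM in 41BB+ cells and 406, 492 and 545 CPM in 41BB- cells at 0 h. The populations did not overlap, with each 41BB- library above 400 CPM (log2 fold change -1.70 ± 0.15 SE, adjusted p = 1.9e-09). At 24 h it stood at 694, 705 and 689 CPM in 41BB+ cells and 458, 382 and 516 CPM in 41BB- cells, so the order of the populations was turned (log2 fold change 0.74 ± 0.14 SE, adjusted p = 0.004). At 72 h it stood at 1405, 1524 and 1388 CPM in 41BB+ cells and 1610.2, 1813 and 1141 CPM in 41BB- cells, where the groups overlapped (log2 fold change -0.05 ± 0.14 SE, adjusted p = 0.87). From 0 h to 24 h it rose in 41BB+ cells (log2 fold change 2.27 ± 0.15 SE, adjusted p = 1.5e-11). In 41BB- cells the log2 fold change was -0.17 ± 0.14 (adjusted p = 0.32), and the difference between these changes passed the test (log2 fold change 2.44 ± 0.21 SE, adjusted p = 5.8e-09). It was 1 of the 9 members with under 10% of its windows shared with other genes (8.54%).

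Hist1h1b (H1.5, chromosome 13, 21779883 to 21780625, minus strand, no window shared with other genes) went the other way at 0 h. It stood at 15, 5.44 and 21.6 CPM in 41BB+ cells and 4.34, 1.94 and 2.71 CPM in 41BB- cells, with each 41BB+ library above each 41BB- library (log2 fold change 2.2 ± 0.58 SE, adjusted p = 0.0074). At 24 h it stood at 387, 388 and 405 CPM in 41BB+ cells and 197, 149 and 199.7 CPM in 41BB- cells, and at 72 h at 686, 740.5 and 550.0 CPM in 41BB+ cells and 1074, 1524 and 739.9 CPM in 41BB- cells. It rose from 0 h to 24 h by 4.85 ± 0.36 in 41BB+ and 5.82 ± 0.46 in 41BB- cells on the log2 scale (adjusted p = 1.4e-07 and 7.7e-08). Its difference at 24 h was near the threshold (log2 fold change 1.23 ± 0.29 SE, adjusted p = 0.038), and the call was lost with library totals as the only scaling, with no filter on low counts, with the experiment number as a block over all libraries and without any 1 of the 6 compared libraries (adjusted p 0.062 to 0.17).

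Hist1h1e (H1.4) followed Hist1h1c in part. It stood at 69.5, 101 and 93.9 CPM in 41BB+ cells and 86.1, 132 and 138 CPM in 41BB- cells at 0 h, where the groups had a log2 fold change of -0.44 ± 0.20 (adjusted p = 0.091). At 24 h it stood at 682, 668 and 632 CPM in 41BB+ cells and 470.0, 393 and 435 CPM in 41BB- cells, without overlap, and at 72 h at 1011, 906 and 701 CPM in 41BB+ cells and 1285, 1477 and 945 CPM in 41BB- cells. Its change from 0 h to 24 h was larger in 41BB+ cells (log2 fold change 1.16 ± 0.27 SE, adjusted p = 0.0038), the other H1 gene besides Hist1h1c for which that test passed. The 24 h call of Hist1h1e was lost with library totals as the only scaling and without any 1 of the 6 compared libraries (adjusted p 0.078 to 0.19). Hist1h1a (H1.1) was the 1 linker histone gene that passed at 72 h, at 198, 229.6 and 292 CPM in 41BB+ cells and 386, 707 and 447 CPM in 41BB- cells (log2 fold change -1.06 ± 0.27 SE, adjusted p = 0.014). The call was lost with no filter on low counts, without the 41BB+ 72 h library of experiment 1 or 2 and without the 41BB- 72 h library of experiment 2 (adjusted p 0.068 to 0.083). At 0 h and 24 h it stood at 14.1, 4.86 and 20.0 CPM in 41BB+ cells and 5.89, 7.45 and 7.54 CPM in 41BB- cells, and at 263, 292 and 311 CPM in 41BB+ cells and 157, 118 and 146 CPM in 41BB- cells.

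The makeup of the histone counts moved with these genes. H1 genes took 53.4% to 64.9% of the members' counts in 41BB- cells at 0 h and 28.1% to 46.2% in 41BB+ cells, without overlap. At 24 h they took 22.3% to 28.4% over the 6 libraries, and at 72 h 30.7% to 39.4%. Hist1h1c alone took 40.3% to 47.9% in 41BB- and 13.2% to 23.6% in 41BB+ cells at 0 h. From 24 h to 72 h in 41BB+ cells, 4 of the 5 tested H1 genes rose (80%, beside 26.2% of all tested genes). Hist1h1c rose by 1.11, Hist1h1b by 0.81, Hist1h1d by 0.81 and Hist1h1e by 0.47 on the log2 scale. The summed H1 level changed from 2749 ± 7.5 to 4400.2 ± 326 CPM (1.60-fold). That of the core histones changed from 8466 ± 1035 to 7365 ± 231 CPM (0.870-fold). The call of Hist1h1b was lost with no filter on low counts, without any 1 of the 41BB+ 24 h libraries and without the 41BB+ 72 h library of experiment 1 or 2 (adjusted p 0.061 to 0.12), and that of Hist1h1e lost with library totals as the only scaling, without any 1 of the 41BB+ 24 h libraries and without the 41BB+ 72 h library of experiment 1 or 2 (adjusted p 0.066 to 0.16).

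**Figure D3:**
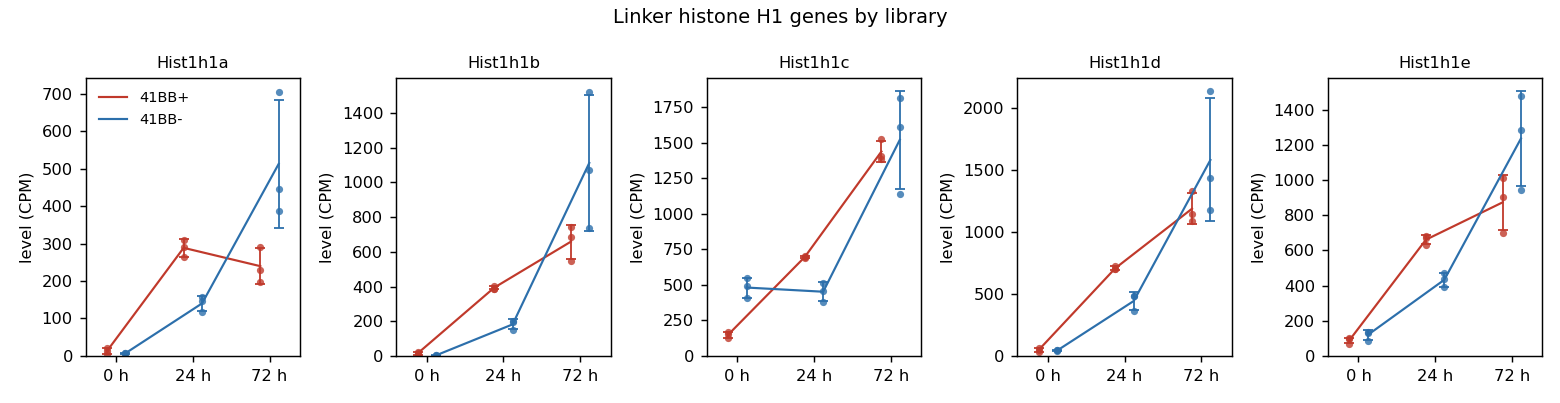
Level of each tested H1 gene in CPM, on a linear axis from 0, by time in each of the 18 libraries. Hist1h1c lies higher in 41BB- than in 41BB+ cells at 0 h, and Hist1h1b lies lower.

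H2A and H2B form the dimers that flank the H3 and H4 core of the nucleosome. Per kilobase of annotated exon, the highest H2A genes over the 18 libraries were Hist1h2ak (mean 613 CPM per kilobase), Hist2h2aa2 (508) and Hist2h2ac (470.0). Such rankings, here and in the families below, depend on the annotated length as well as on the counts. Some annotations hold the coding part only, as that of Hist1h2ak does. Hist1h2ak stood at 32.1, 10.6 and 24.2 CPM in 41BB+ cells and 17, 9.4 and 11.8 CPM in 41BB- cells at 0 h. At 24 h Hist1h2ak stood at 373, 343 and 381 CPM in 41BB+ cells and 267, 198 and 203 CPM in 41BB- cells, and at 72 h at 317, 314 and 298 CPM in 41BB+ cells and 451, 703 and 385 CPM in 41BB- cells. Without overlap, 41BB+ libraries lay above the others at 24 h (0.83 ± 0.26 on the log2 scale, adjusted p = 0.13) and below them at 72 h (-0.69 ± 0.25 on the log2 scale, adjusted p = 0.075). Neither passed the test. Hist2h2ac stood at 82.5, 34.3 and 54.4 CPM in 41BB+ cells and 52.4, 34 and 40.4 CPM in 41BB- cells at 0 h. At 24 h Hist2h2ac stood at 455, 387 and 417 CPM in 41BB+ cells and 309, 174 and 243 CPM in 41BB- cells, and at 72 h at 249, 283 and 278 CPM in 41BB+ cells and 455, 528 and 322 CPM in 41BB- cells. In Hist2h2ac each 41BB+ library lay above each 41BB- library at 24 h (0.91 ± 0.26 on the log2 scale, adjusted p = 0.091) and below it at 72 h (-0.65 ± 0.26 on the log2 scale, adjusted p = 0.095). Neither difference passed the test. Hist2h2aa2, whose exon is wholly overlapped by an antisense gene, stood at 55.4, 37.5 and 47.9 CPM in 41BB+ cells and 54.8, 50.6 and 58.5 CPM in 41BB- cells at 0 h. At 24 h Hist2h2aa2 stood at 544, 384.6 and 434 CPM in 41BB+ cells and 384.5, 198 and 250.3 CPM in 41BB- cells, and at 72 h at 288, 302 and 323 CPM in 41BB+ cells and 421, 619 and 378 CPM in 41BB- cells. The 41BB+ libraries of Hist2h2aa2 were the upper 3 at 24 h (0.83 ± 0.22 on the log2 scale, adjusted p = 0.059) and the lower 3 at 72 h (-0.60 ± 0.22 on the log2 scale, adjusted p = 0.069). Neither passed the test. It rose more in 41BB+ cells from 0 h to 24 h (log2 fold change 1.06 ± 0.33 SE, adjusted p = 0.03). The call was lost with library totals as the only scaling, without the 41BB+ 0 h library of experiment 2 or 3, without the 41BB- 0 h library of experiment 1 or 3, without the 41BB+ 24 h library of experiment 1 and without the 41BB- 24 h library of experiment 3 (adjusted p 0.053 to 0.083). Between the populations at 24 h, all 15 tested H2A genes lay between 0.63 and 0.92 on the log2 scale.

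Hist1h2af was the largest upward difference of the populations at 0 h among called members, on few counts. It stood at 7.36, 0.858 and 9.21 CPM in 41BB+ cells and 0, 0.972 and 1.81 CPM in 41BB- cells, and experiment 2 of 41BB+ lay within the 41BB- range (log2 fold change 2.59 ± 0.74 SE, adjusted p = 0.011). The call was lost without the 41BB+ 0 h library of experiment 3 (adjusted p = 0.057). At 24 h it stood at 188, 169 and 172 CPM in 41BB+ cells and 118, 84.2 and 109 CPM in 41BB- cells, and at 72 h at 255, 255 and 237 CPM in 41BB+ cells and 354, 373 and 277 CPM in 41BB- cells. Its rise to 24 h in 41BB- cells was 6.66 ± 0.49 on the log2 scale (adjusted p = 7.6e-09).

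Among H2B genes the highest per kilobase were Hist1h2bn (mean 447 CPM per kilobase), Hist1h2bj (251) and Hist1h2bb (244). Hist1h2bn stood at 13.5, 4.58 and 7.1 CPM in 41BB+ cells and 13, 9.08 and 7.84 CPM in 41BB- cells at 0 h. At 24 h Hist1h2bn stood at 243, 208 and 232 CPM in 41BB+ cells and 153, 95.5 and 125 CPM in 41BB- cells, and at 72 h at 269, 254 and 263 CPM in 41BB+ cells and 384, 478 and 305 CPM in 41BB- cells. Its 41BB+ libraries lay above all 41BB- libraries at 24 h (0.99 ± 0.20 on the log2 scale, adjusted p = 0.0093) and below them at 72 h (-0.53 ± 0.20 on the log2 scale, adjusted p = 0.066). The 24 h difference passed the test and the 72 h difference did not. Hist1h2bn lost its 24 h call without the 41BB- 24 h library of experiment 2 or 3 (adjusted p 0.057 to 0.058). Hist1h2bj stood at 7.07, 2.57 and 9.21 CPM in 41BB+ cells and 2.17, 2.27 and 2.11 CPM in 41BB- cells at 0 h. At 24 h Hist1h2bj stood at 237, 160.4 and 205 CPM in 41BB+ cells and 163, 85.4 and 96.9 CPM in 41BB- cells, and at 72 h at 144, 132 and 145 CPM in 41BB+ cells and 223, 282 and 196 CPM in 41BB- cells. All 41BB+ libraries of Hist1h2bj lay above the 41BB- libraries at 0 h (1.51 ± 0.54 on the log2 scale, adjusted p = 0.035) and below them at 72 h (-0.70 ± 0.23 on the log2 scale, adjusted p = 0.044), and at 24 h the groups overlapped (0.92 ± 0.23 on the log2 scale, adjusted p = 0.044). Hist1h2bj lost its 0 h call without the 41BB+ 0 h library of experiment 1 or 3 and without any 1 of the 41BB- 0 h libraries (adjusted p 0.093 to 0.18). Hist1h2bj lost its 24 h call with library totals as the only scaling, with only the compared groups in the fit, without the 41BB+ 24 h library of experiment 1 or 3 and without the 41BB- 24 h library of experiment 2 or 3 (adjusted p 0.075 to 0.22). Hist1h2bj lost its 72 h call with RLE factors and without any 1 of the 6 compared libraries (adjusted p 0.055 to 0.24). Hist1h2bb stood at 9.43, 3.43 and 4.47 CPM in 41BB+ cells and 3.72, 0.972 and 3.62 CPM in 41BB- cells at 0 h. At 24 h Hist1h2bb stood at 184, 143 and 172 CPM in 41BB+ cells and 128, 82.8 and 101 CPM in 41BB- cells, and at 72 h at 188, 191 and 173 CPM in 41BB+ cells and 265, 352 and 227 CPM in 41BB- cells. In Hist1h2bb each 41BB+ library lay above each 41BB- library at 24 h (0.79 ± 0.21 on the log2 scale, adjusted p = 0.041) and below it at 72 h (-0.58 ± 0.20 on the log2 scale, adjusted p = 0.049). Both differences passed the test. Hist1h2bb lost its 24 h call with library totals as the only scaling, without the 41BB+ 24 h library of experiment 1 or 3 and without the 41BB- 24 h library of experiment 2 or 3 (adjusted p 0.095 to 0.2). Hist1h2bb lost its 72 h call with RLE factors, without any 1 of the 41BB+ 72 h libraries and without the 41BB- 72 h library of experiment 1 or 2 (adjusted p 0.067 to 0.33). H2B held the most calls at 72 h, and among them Hist1h2bm stood at 103, 97.2 and 102 CPM in 41BB+ cells and 219, 233 and 163 CPM in 41BB- cells (log2 fold change -0.99 ± 0.18 SE, adjusted p = 3.1e-04). At 0 h and 24 h Hist1h2bm stood at 2.06, 2 and 6.05 CPM in 41BB+ cells and 1.24, 0.972 and 0.302 CPM in 41BB- cells, and at 139.7, 102 and 144 CPM in 41BB+ cells and 73.4, 54.9 and 69 CPM in 41BB- cells. Hist1h2bk stood at 6.19, 5.15 and 4.73 CPM in 41BB+ cells and 1.55, 0.648 and 0.905 CPM in 41BB- cells at 0 h, without overlap (log2 fold change 2.31 ± 0.41 SE, adjusted p = 3.7e-05). At 24 h and 72 h Hist1h2bk stood at 179, 134 and 146 CPM in 41BB+ cells and 90.0, 65.7 and 69.6 CPM in 41BB- cells, and at 136, 124 and 122 CPM in 41BB+ cells and 216, 283 and 199 CPM in 41BB- cells.

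Hist1h2bf, an H2B gene, rose over both intervals in both populations. It stood at 0.884, 1.72 and 1.84 CPM in 41BB+ cells and 0.62, 0.972 and 2.11 CPM in 41BB- cells at 0 h. At 24 h Hist1h2bf stood at 11.6, 13 and 9.46 CPM in 41BB+ cells and 4.15, 5.44 and 8.24 CPM in 41BB- cells, and at 72 h at 51.6, 50.6 and 45.8 CPM in 41BB+ cells and 111, 100.3 and 73.1 CPM in 41BB- cells. The 41BB+ libraries of Hist1h2bf were the upper 3 at 24 h (1.04 ± 0.28 on the log2 scale, adjusted p = 0.038) and the lower 3 at 72 h (-0.91 ± 0.21 on the log2 scale, adjusted p = 0.0024). Both passed the test. Hist1h2bf lost its 24 h call with library totals as the only scaling, with the experiment number as a block over all libraries, with only the compared groups in the fit, without any 1 of the 41BB+ 24 h libraries and without the 41BB- 24 h library of experiment 1 or 2 (adjusted p 0.051 to 0.23). Its change from 0 h to 24 h was 2.95 ± 0.36 in 41BB+ and 2.15 ± 0.42 in 41BB- cells on the log2 scale (adjusted p = 1.6e-07 and 7.4e-05). It rose from 24 h to 72 h in 41BB+ cells (log2 fold change 2.18 ± 0.24 SE, adjusted p = 7.4e-09) and in 41BB- cells (log2 fold change 4.13 ± 0.26 SE, adjusted p = 7.8e-13). Hist1h2ad, the H2A gene on the other side of its promoter printed above, stood at 9.72, 4.29 and 4.73 CPM in 41BB+ cells and 4.65, 4.86 and 3.32 CPM in 41BB- cells at 0 h. At 24 h Hist1h2ad stood at 175, 125 and 157 CPM in 41BB+ cells and 112, 78.5 and 87.5 CPM in 41BB- cells, and at 72 h at 149.5, 154 and 158 CPM in 41BB+ cells and 216, 279 and 212 CPM in 41BB- cells. Its 41BB+ libraries lay above all 41BB- libraries at 24 h (0.84 ± 0.16 on the log2 scale, adjusted p = 0.0032) and below them at 72 h (-0.58 ± 0.16 on the log2 scale, adjusted p = 0.01). Both differences passed the test. Hist1h2ad lost its 72 h call without the 41BB+ 72 h library of experiment 1 or 2 and without the 41BB- 72 h library of experiment 2 (adjusted p 0.064 to 0.15). Its change from 24 h to 72 h was 0.08 ± 0.16 in 41BB+ (adjusted p = 0.7) and 1.5 ± 0.16 in 41BB- cells (adjusted p = 2.8e-08). The ratio of the H2B to the H2A mean level in the pair went from 0.237 and 0.289 at 0 h (41BB+ and 41BB-) to 0.0745 and 0.0641 at 24 h and to 0.321 and 0.403 at 72 h. Hist1h2bf and Hist1h2ad carry the same stem-loop letters, and they share 65.8% and 67.1% of their windows with other genes.

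Hist3h2ba and Hist2h2be were H2B genes with few counts. Hist3h2ba had 22, 1 and 140 counts over the 3 libraries of 41BB- cells at 0 h, 24 h and 72 h, and 8, 16 and 58 counts in 41BB+ cells. It fell from 0 h to 24 h in 41BB- cells (adjusted p = 0.0013), the 1 member that did, and rose from 24 h to 72 h in both (adjusted p = 0.015 in 41BB+ and 1.3e-06 in 41BB- cells). No fold is given because a group had 1 count. Hist2h2be had 41, 17 and 36 counts in 41BB- and 20, 14 and 45 counts in 41BB+ cells. It rose from 24 h to 72 h in 41BB+ cells (log2 fold change 1.80 ± 0.68 SE, adjusted p = 0.027) and passed none of the other tests between times. That call was lost with no filter on low counts, without the 41BB+ 24 h library of experiment 1 or 2 and without the 41BB+ 72 h library of experiment 2 or 3 (adjusted p 0.069 to 0.13). The call of Hist3h2ba in 41BB+ cells was lost without the 41BB+ 24 h library of experiment 2 and without the 41BB+ 72 h library of experiment 3 (adjusted p 0.054 to 0.15).

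**Figure D4:**
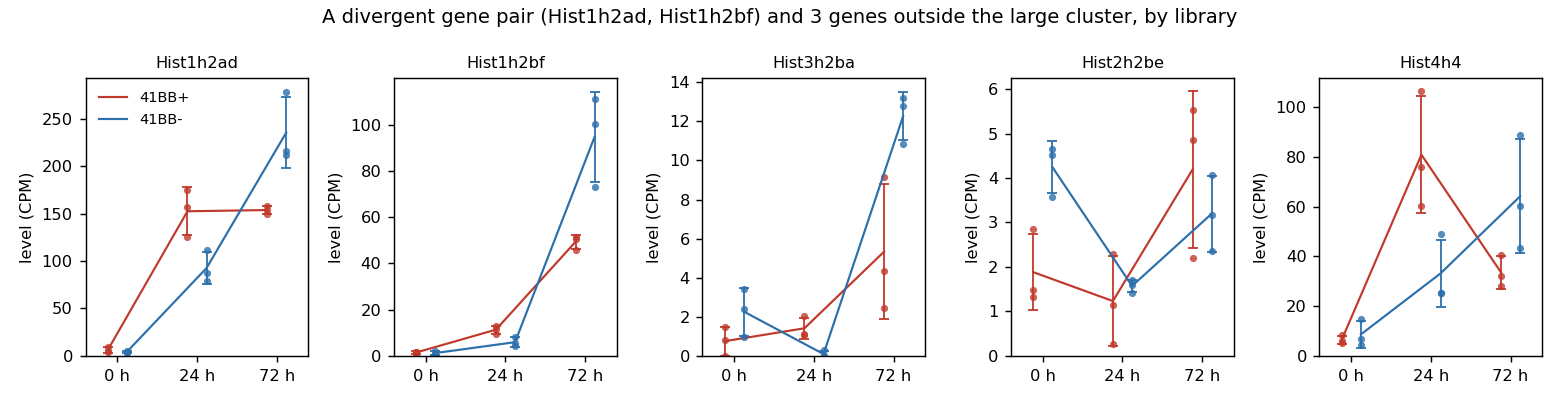
Level of Hist1h2ad, Hist1h2bf, Hist3h2ba, Hist2h2be and Hist4h4 in CPM by time in each of the 18 libraries. Hist1h2bf lies at 4.15 to 13 CPM in every 24 h library and at 45.8 to 111 CPM at 72 h.

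H3 and H4 form the central tetramer of the nucleosome. Of the H3 genes the highest per kilobase were Hist1h3b (mean 275 CPM per kilobase), Hist2h3b (252) and Hist1h3i (210.4). Annotated length matters here: the transcript of Hist2h3c2 has 1020 bases and that of Hist1h3i 411. Hist2h3c2 stood at 271, 230 and 245 CPM in 41BB+ cells at 24 h. Hist1h3b stood at 7.36, 4 and 10.8 CPM in 41BB+ cells and 7.75, 4.21 and 3.92 CPM in 41BB- cells at 0 h. At 24 h Hist1h3b stood at 266, 219 and 219 CPM in 41BB+ cells and 159, 92.7 and 113 CPM in 41BB- cells, and at 72 h at 239, 255 and 247 CPM in 41BB+ cells and 349.8, 504 and 367 CPM in 41BB- cells. Without overlap, 41BB+ libraries lay above the others at 24 h (1.07 ± 0.21 on the log2 scale, adjusted p = 0.0068) and below them at 72 h (-0.69 ± 0.20 on the log2 scale, adjusted p = 0.021). Both passed the test. Hist1h3b lost its 24 h call without the 41BB- 24 h library of experiment 3 (adjusted p = 0.058). Hist1h3b lost its 72 h call without any 1 of the 41BB+ 72 h libraries and without the 41BB- 72 h library of experiment 2 or 3 (adjusted p 0.051 to 0.16). Hist2h3b, overlapped by an antisense gene, stood at 12.4, 3.15 and 6.05 CPM in 41BB+ cells and 2.48, 5.51 and 4.22 CPM in 41BB- cells at 0 h. At 24 h Hist2h3b stood at 175, 190.1 and 157 CPM in 41BB+ cells and 129.9, 71.6 and 85.5 CPM in 41BB- cells, and at 72 h at 193, 168 and 193 CPM in 41BB+ cells and 257, 338 and 224 CPM in 41BB- cells. In Hist2h3b each 41BB+ library lay above each 41BB- library at 24 h (0.99 ± 0.25 on the log2 scale, adjusted p = 0.04) and below it at 72 h (-0.53 ± 0.24 on the log2 scale, adjusted p = 0.14). The 24 h difference passed the test and the 72 h difference did not. Hist2h3b lost its 24 h call with library totals as the only scaling, with a block within each time, without any 1 of the 41BB+ 24 h libraries and without the 41BB- 24 h library of experiment 2 or 3 (adjusted p 0.062 to 0.18). Hist1h3i stood at 5.01, 2.57 and 6.05 CPM in 41BB+ cells and 5.89, 2.92 and 3.32 CPM in 41BB- cells at 0 h. At 24 h Hist1h3i stood at 140.3, 109 and 124 CPM in 41BB+ cells and 89, 61.5 and 48 CPM in 41BB- cells, and at 72 h at 113, 125 and 152 CPM in 41BB+ cells and 156, 233 and 179.7 CPM in 41BB- cells. The 41BB+ libraries of Hist1h3i were the upper 3 at 24 h (1.03 ± 0.21 on the log2 scale, adjusted p = 0.007) and the lower 3 at 72 h (-0.51 ± 0.20 on the log2 scale, adjusted p = 0.085). Of these the 24 h difference alone passed the test. Hist1h3i lost its 24 h call without the 41BB- 24 h library of experiment 2 (adjusted p = 0.062). At 24 h, 10 of 11 tested H3 genes were higher in 41BB+ cells, with the family between 0.86 and 1.11 on the log2 scale. Hist1h3c was called higher in 41BB+ cells at 0 h (log2 fold change 2.26 ± 0.83 SE, adjusted p = 0.04), at 4.71, 0.858 and 5.26 CPM in 41BB+ cells and 2.17, 0 and 0 CPM in 41BB- cells. That call was lost without the 41BB+ 0 h library of experiment 1 or 3 and without the 41BB- 0 h library of experiment 2 or 3 (adjusted p 0.12 to 0.16).

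From 24 h to 72 h in 41BB+ cells 2 of 11 tested H3 genes fell (18.2%, less than the 26.3% of all tested genes). They were Hist1h3a (log2 fold change -0.60 ± 0.22 SE, adjusted p = 0.023) and Hist1h3e (log2 fold change -0.46 ± 0.16 SE, adjusted p = 0.018). Hist1h3a stood at 126, 109 and 90.5 CPM at 24 h and 68, 67.2 and 69.2 CPM at 72 h in these cells, and Hist1h3e at 227, 187 and 202 CPM and 119, 130.1 and 177 CPM. The call of Hist1h3a was lost without the 41BB+ 24 h library of experiment 1 or 2 and without any 1 of the 41BB+ 72 h libraries (adjusted p 0.055 to 0.12), and that of Hist1h3e lost without the 41BB+ 24 h library of experiment 1 and without the 41BB+ 72 h library of experiment 1 or 2 (adjusted p 0.094 to 0.12). In 41BB- cells both rose over the same interval, by 0.97 and 1.47. The largest rise of an H3 gene to 24 h in 41BB+ cells was that of Hist1h3g, from 3.24, 2.57 and 2.63 CPM to 118, 105 and 89.5 CPM (log2 fold change 5.25 ± 0.23 SE, adjusted p = 5.7e-16). In 41BB- cells it was that of Hist1h3c, from 2.17, 0 and 0 CPM to 91.6, 57.9 and 69.9 CPM (log2 fold change 6.50 ± 0.52 SE, adjusted p = 9.8e-09).

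All H4 genes code for 1 protein in the textbook view, and their promoters mostly lacked the CCAAT letters. The highest per kilobase were Hist1h4d (mean 223 CPM per kilobase), Hist1h4k (179) and Hist1h4h (167). Hist1h4d stood at 59.5, 33.2 and 40.2 CPM in 41BB+ cells and 38.1, 31.1 and 39.5 CPM in 41BB- cells at 0 h. At 24 h Hist1h4d stood at 467, 349 and 371 CPM in 41BB+ cells and 276, 194 and 189 CPM in 41BB- cells, and at 72 h at 316, 302 and 342 CPM in 41BB+ cells and 429.6, 607 and 477 CPM in 41BB- cells. Its 41BB+ libraries lay above all 41BB- libraries at 24 h (0.96 ± 0.17 on the log2 scale, adjusted p = 0.0029) and below them at 72 h (-0.62 ± 0.17 on the log2 scale, adjusted p = 0.014). Both differences passed the test. Hist1h4d lost its 72 h call without any 1 of the 41BB+ 72 h libraries and without the 41BB- 72 h library of experiment 2 (adjusted p 0.053 to 0.14). Hist1h4k stood at 6.48, 4.29 and 3.95 CPM in 41BB+ cells and 4.96, 2.59 and 2.71 CPM in 41BB- cells at 0 h. At 24 h Hist1h4k stood at 109, 81.1 and 87.9 CPM in 41BB+ cells and 56.5, 40.7 and 37.5 CPM in 41BB- cells, and at 72 h at 57.6, 73.9 and 78.4 CPM in 41BB+ cells and 95.4, 163 and 100.0 CPM in 41BB- cells. Without overlap, 41BB+ libraries lay above the others at 24 h (1.16 ± 0.21 on the log2 scale, adjusted p = 0.0014) and below them at 72 h (-0.74 ± 0.20 on the log2 scale, adjusted p = 0.01). Both passed the test. Hist1h4k lost its 72 h call without the 41BB+ 72 h library of experiment 1 and without the 41BB- 72 h library of experiment 2 (adjusted p 0.09 to 0.22). Hist1h4h stood at 20.6, 6.87 and 9.21 CPM in 41BB+ cells and 6.2, 7.78 and 14.2 CPM in 41BB- cells at 0 h. At 24 h Hist1h4h stood at 149.7, 100.2 and 122 CPM in 41BB+ cells and 84.9, 46.3 and 63.9 CPM in 41BB- cells, and at 72 h at 92.2, 104 and 118 CPM in 41BB+ cells and 129, 208 and 131 CPM in 41BB- cells. In Hist1h4h each 41BB+ library lay above each 41BB- library at 24 h (1.05 ± 0.31 on the log2 scale, adjusted p = 0.099) and below it at 72 h (-0.54 ± 0.30 on the log2 scale, adjusted p = 0.25). Neither difference passed the test. The largest H4 differences at 24 h were in Hist4h4 and Hist1h4b. Hist1h4b stood at 141, 100.2 and 104 CPM in 41BB+ cells and 64.5, 39 and 46.6 CPM in 41BB- cells without overlap (log2 fold change 1.32 ± 0.22 SE, adjusted p = 0.0011).

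Hist4h4, the 1 gene of its cluster, rose and fell within the course in 41BB+ cells. It stood at 8.25, 6.01 and 5.26 CPM in 41BB+ cells and 14.9, 6.81 and 4.22 CPM in 41BB- cells at 0 h. At 24 h Hist4h4 stood at 106, 76.1 and 60.1 CPM in 41BB+ cells and 48.8, 25.3 and 25.3 CPM in 41BB- cells, and at 72 h at 40.6, 27.9 and 32.1 CPM in 41BB+ cells and 60.3, 88.7 and 43.4 CPM in 41BB- cells. The 41BB+ libraries of Hist4h4 were the upper 3 at 24 h (1.41 ± 0.34 on the log2 scale, adjusted p = 0.034) and the lower 3 at 72 h (-0.89 ± 0.34 on the log2 scale, adjusted p = 0.081). Of these the 24 h difference alone passed the test. The 24 h call was lost with library totals as the only scaling, with only the compared groups in the fit, without the 41BB+ 24 h library of experiment 1 or 2 and without the 41BB- 24 h library of experiment 2 or 3 (adjusted p 0.050 to 0.17). It fell from 24 h to 72 h in 41BB+ cells (log2 fold change -1.20 ± 0.34 SE, adjusted p = 0.0068) and rose in 41BB- cells (log2 fold change 1.11 ± 0.34 SE, adjusted p = 0.016), a call lost without the 41BB- 24 h library of experiment 2 or 3 and without the 41BB- 72 h library of experiment 2 (adjusted p 0.098 to 0.1). The difference between these changes was the largest downward one among members with more than 1 count in each group (log2 fold change -2.30 ± 0.48 SE, adjusted p = 0.0027). The other H4 genes that fell in 41BB+ cells were Hist1h4m (-0.65), Hist1h4n (-0.65) and Hist1h4b (-0.51). Hist1h4i rose there (0.73). Hist1h4m lost its call in 41BB+ cells without the 41BB+ 24 h library of experiment 1 and without any 1 of the 41BB+ 72 h libraries (adjusted p 0.053 to 0.13). Hist1h4n lost its call in 41BB+ cells without the 41BB+ 24 h library of experiment 1 and without any 1 of the 41BB+ 72 h libraries (adjusted p 0.058 to 0.19). Hist1h4b lost its call in 41BB+ cells with RLE factors, with the experiment number as a block over all libraries, by DESeq2, without the 41BB+ 24 h library of experiment 1 or 3 and without the 41BB+ 72 h library of experiment 1 or 3 (adjusted p 0.057 to 0.26). Hist1h4i lost its call in 41BB+ cells with library totals as the only scaling, with no filter on low counts, without the 41BB+ 24 h library of experiment 2 or 3 and without the 41BB+ 72 h library of experiment 1 or 2 (adjusted p 0.051 to 0.12).

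Members also differed by where their annotated transcript ends. In 22 of the 67 the annotation stops within 100 bases after the stem-loop, in 22 it runs more than 100 bases past it, in 11 it holds the coding part only, and in 12 no stem-loop letters were found. Of the 22 that run past it, 11 have a poly(A) signal in the last 40 bases, Hist1h1c among them with 840 bases after the stem-loop. If the counting used the same transcript ends, a longer annotation counts reads past the stem-loop where the others do not. The classes may then differ in what was counted. Which annotation release the counting used was not stated. Their summed level at 0 h was 451 ± 33.3 (41BB+) and 808 ± 84.2 CPM (41BB-) for the class that runs past the stem-loop, and 227 ± 81.7 and 168 ± 21.1 CPM for the class that ends near it. Most of the gap between the populations in the first class came from Hist1h1c, at 127 to 166 CPM in 41BB+ and 406 to 545 CPM in 41BB- cells. The median log2 fold change between the populations at 0 h was -0.18 over 19 tested members that run past, and 0.64 over 21 that end near, 0.63 over 9 with the coding part only and 0.76 over 12 without a match. From 0 h to 24 h the median log2 fold change of the class that runs past was 3.69 in 41BB+ and 2.83 in 41BB- cells, and those of the other classes 4.45 to 4.77 and 4.19 to 4.43. Of the 11 members whose change differed between the populations, 9 were in this class (of 19 tested), 1 of 9 had the coding part only, 1 of 21 ended near the stem-loop and 0 of 12 had no match. These 11 were Hist1h1c, Hist1h1e, Hist1h2ac, Hist2h2aa2, Hist1h2be, Hist1h2bn, Hist3h2ba, Hist1h3e, Hist1h4c, Hist2h4 and Hist4h4. The calls of Hist1h2ac, Hist2h2aa2, Hist1h2bn, Hist1h4c and Hist4h4 were each lost without the 41BB+ 0 h library of experiment 2 or 3, the 41BB- 0 h library of experiment 1, the 41BB+ 24 h library of experiment 1 or the 41BB- 24 h library of experiment 3 (adjusted p 0.051 to 0.17). At 24 h the medians of the classes between the populations were 0.92 to 1.02. The classes were read from the annotation after other results were known, and their differences were not tested.

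Genes that act with histones were compared as lists chosen with earlier results known. The 29 tested S phase genes code for MCM helicase subunits, polymerases and nucleotide synthesis enzymes among others. At 0 h 28 of 29 were higher in 41BB+ cells (96.6%, beside 22.2% of all tested genes) and 0 lower. At 24 h 2 were higher (6.9%, beside 1.67%), Rrm2 by 0.64 and Rfc5 by 0.55, and 0 lower, where DESeq2 called 5 higher and 0 lower and an unadjusted p under 0.05 was reached by 8 upward and 0 downward. At 72 h 0 were higher, also by DESeq2 and at an unadjusted p under 0.05, and 27 lower (93.1%, beside 12.2%). The call of Rfc5 was lost with library totals as the only scaling, with no filter on low counts, without any 1 of the 41BB+ 24 h libraries and without the 41BB- 24 h library of experiment 2 or 3 (adjusted p 0.063 to 0.21). The summed level of the 30 listed genes was 2139 ± 164 and 648 ± 25.4 CPM in 41BB+ and 41BB- cells at 0 h, 5990.1 ± 166 and 5630 ± 118 CPM at 24 h, and 2732 ± 373 and 4783 ± 95.6 CPM at 72 h. The members' summed CPM per CPM of these genes was 0.314 to 0.437 in 41BB+ and 1.57 to 1.82 in 41BB- cells at 0 h, 1.77 to 2.01 and 0.911 to 1.40 at 24 h, and 3.66 to 4.77 and 3.05 to 4.56 at 72 h. The populations were apart at 0 h and 24 h, in opposite orders, and overlapped at 72 h. From 24 h to 72 h in 41BB- cells, where 59 of 61 histone genes rose, 1 S phase gene rose (Tk1 by 1.35) and 5 fell, Mcm2, Mcm3, Mcm4 and Pcna among them (3.45% and 17.2%, less than the 22.6% and 18.2% of all tested genes). In 41BB+ cells 0 rose, also by DESeq2 and at an unadjusted p under 0.05, and 28 fell over the same interval (96.6%, beside 26.3%).

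The 26 tested genes of histone mRNA processing and transcription include SLBP and the factors that cut, cap or uridylate histone mRNA. At 24 h 0 were called between the populations, with unadjusted p under 0.05 for 2 higher and 1 lower and no call by DESeq2. At 0 h 11 were higher in 41BB+ cells (42.3%, beside 22.2% of all tested genes), such as Srrt (1.05) and Cstf2 (0.97), and 3 were lower (11.5%, beside 17.3%), Tut4 (-0.83), Tut7 (-0.87) and Mif4gd (-0.62). At 72 h 2 were higher (7.69%, near the 6.71% of all tested genes), Tut4 (0.49) and Tut7 (0.47), which add uridines to histone mRNA, and 5 were lower (19.2%, beside 12.2%): Slbp (-0.74), Cstf2 (-0.72), Cpsf2 (-0.62), Sympk (-0.56) and Pou2f1 (-0.48). Slbp, the stem-loop binding protein, rose to 24 h in 41BB+ (log2 fold change 1.31 ± 0.14 SE, adjusted p = 2.3e-08) and in 41BB- cells (log2 fold change 1.72 ± 0.15 SE, adjusted p = 8.0e-11). It fell from 24 h to 72 h in 41BB+ cells (log2 fold change -0.63 ± 0.14 SE, adjusted p = 3.8e-04), and in 41BB- cells the change was 0.32 ± 0.14 (adjusted p = 0.065). Its values were chosen for print after they were seen. The 0 h call of Mif4gd was lost with no filter on low counts, without the 41BB+ 0 h library of experiment 1 and without the 41BB- 0 h library of experiment 3 (adjusted p 0.07 to 0.1), and the 72 h call of Pou2f1 lost with RLE factors, with no filter on low counts, with the experiment number as a block over all libraries, with only the compared groups in the fit, by DESeq2, without the 41BB+ 72 h library of experiment 2 or 3 and without the 41BB- 72 h library of experiment 2 or 3 (adjusted p 0.051 to 0.31).

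Of 27 tested histone chaperones and deposition factors, 15 were higher and 2 lower in 41BB+ cells at 0 h (55.6% and 7.41%, beside 22.2% and 17.3% of all tested genes). At 24 h 1 was higher (3.7%, beside 1.67%), Hjurp, the CENP-A chaperone, by 0.71, and 0 lower, with 3 higher and 0 lower by DESeq2 and 7 upward and 0 downward at an unadjusted p under 0.05. At 72 h 0 were higher, also by DESeq2 and at an unadjusted p under 0.05, and 13 lower (48.1%, beside 12.2%). The 9 tested replacement histones, which are made outside S phase as well and mostly have polyadenylated mRNAs, did not move as one. At 0 h 22.2% of them were higher in 41BB+ cells, the same as the 22.2% of all tested genes, so that count is no result about the list. At that time 44.4% were lower, beside 17.3% of all tested genes. At 24 h 22.2% were higher (beside 1.67%), and at 72 h 22.2% were lower (beside 12.2%). At 0 h H2afx (1.29) and H2afj (0.76) were higher and H1f0 (-2.04), Cenpa (-1.25), H2afv (-1.21) and H2afy (-0.34) lower in 41BB+ cells. At 24 h Cenpa (1.85) and H2afx (0.89) were higher and 0 lower, and at 72 h H2afx (-0.56) and H3f3b (-0.32) were lower and 0 higher. DESeq2 called 0 lower at 24 h and 0 higher at 72 h, and an unadjusted p under 0.05 was reached by 1 and 0. The 72 h call of H2afx was lost without the 41BB+ 72 h library of experiment 2 or 3 and without the 41BB- 72 h library of experiment 1 or 2 (adjusted p 0.052 to 0.066), and that of H3f3b lost with RLE factors, with no filter on low counts, with only the compared groups in the fit and without any 1 of the 6 compared libraries (adjusted p 0.052 to 0.26). The 0 h call of H1f0 was lost without the 41BB+ 0 h library of experiment 1 or 2 and without the 41BB- 0 h library of experiment 3 (adjusted p 0.064 to 0.078). H1f0, a linker histone known from cells that do not divide, had the same direction at 0 h as Hist1h1c. H1f0 rose from 0 h to 24 h in 41BB+ cells (log2 fold change 3.45, adjusted p = 2.6e-05). In 41BB- cells that change did not pass (0.58, adjusted p = 0.32). From 24 h to 72 h H1f0 rose in 41BB+ (1.39, adjusted p = 0.0035) and in 41BB- cells (2.97, adjusted p = 1.0e-06).

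**Figure D5:**
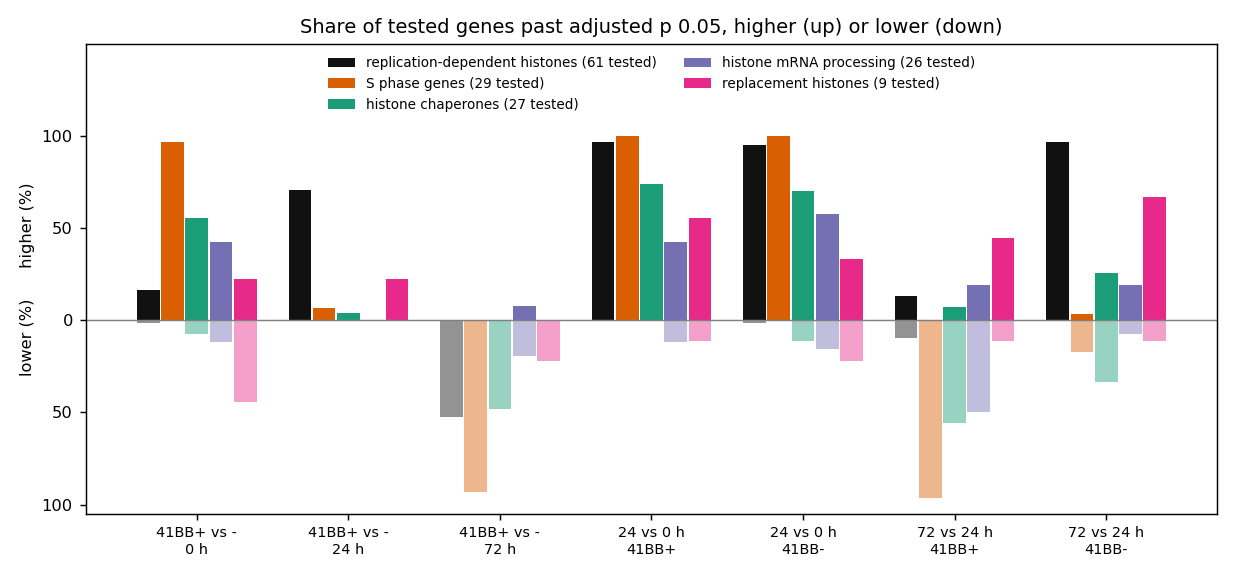
Share of the tested genes of each list that were called higher (upward bars) or lower (downward bars), in percent. The comparisons between populations and between times are shown, without the interactions. At 24 h 43 of 61 histone genes and 2 of 29 S phase genes were higher in 41BB+ cells.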

How the data were processed

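Gene counts of 18 libraries were analysed. The authors deposited unnormalised whole-number read counts of 55487 genes, made on GRCm38 with FastQC 0.11.9, Trimmomatic 0.38, HISAT2 2.2.1 and featureCounts, per the submitters' processing notes. Per the labels' protocols, libraries were prepared from total RNA with a SMARTer Stranded kit (Total RNA-Seq v2). The strand setting of the counting was not stated, so reads of a member and of an antisense or overlapping gene cannot be told apart. Total RNA includes mRNA without a poly(A) tail. Symbols, exons and transcripts came from GENCODE M21, in which 55227 of the 55487 genes were found. The annotation release of the counting was not stated.

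Counts were tested with edgeR 4.0.16 in R 4.3.3: filterByExpr by group (minimum count 10, minimum total 15), TMM factors, robust quasi-likelihood F-tests with 1 mean for each of the 6 groups over all 18 libraries, and Benjamini-Hochberg adjustment over 13150 genes at 0.05. Every adjusted p comes from this test unless DESeq2 1.42.0 is named. Positive values mean higher in 41BB+ cells or at the later time, and an interaction is the difference of 2 such changes. SE is the log2 fold change divided by the root of F. The script was tested on simulated counts. Levels are CPM from the library totals. Libraries of a group differed by 4.56 to 8.90 times the sampling variance, so none was a copy.

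Members chosen for values by library were the 3 highest of each family by CPM per kilobase, the 2 largest called changes in each direction of a comparison, and calls against the majority. Hist1h3a, Hist1h3c, Hist1h3e, Hist1h3g and Hist1h4b are given for some groups only. Hist3h2ba is given by group counts, and Hist1h4m and Hist1h4n by log2 fold changes. Of other lists, up to 4 genes a comparison were named by adjusted p, and counts of 5 or fewer in full, except that some genes are not reported here by name. The members and lists were chosen with earlier results of these data known. Alternatives were other scalings (RLE, library totals), no low-count filter, removal of mitochondrial genes and Gm23935, a replicate block, fits of the compared groups only, DESeq2, and each library left out in turn.

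The experiment number of the labels was read as pairing 41BB+ with 41BB- libraries of one time. Deviations from the group means correlated at a median of 0.108 (-0.00287 to 0.255) over the 9 such pairs and at -0.0664 over 18 pairs of other numbers. The fit without the block is the one reported.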

Additional observations from a re-analysis of the deposited data

Results flagged for a closer look

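The time courses of the histone genes differed between the populations by the interaction test of edgeR. From 0 h to 24 h, 11 members had a higher change in 41BB+ cells, with 2.44 on the log2 scale for Hist1h1c as the largest difference outside Hist3h2ba, whose 41BB- group at 24 h had 1 count. From 24 h to 72 h, 59 members had a lower change in 41BB+ cells, with -2.30 for Hist4h4 as the largest difference outside Hist3h2ba. Beside both stand the marker levels of other cells given above, whose part was not tested. With 3 libraries a group, no group was large enough for a test of single outlying libraries.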

How the results depend on the processing

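With each library left out in turn, the number of called members ran from 5 to 19 at 0 h, 16 to 44 at 24 h and 7 to 27 at 72 h between the populations, from 6 to 10 for 72 h against 24 h in 41BB+ cells, and from 6 to 14 and 52 to 59 for the 2 interactions. It was 59 for both 24 h against 0 h comparisons and 58 to 59 for 72 h against 24 h in 41BB- cells. No filter on low counts gave 19 calls at 0 h and 15 for 72 h against 24 h in 41BB+ cells, with more lower than higher. Library totals alone gave 13 there (6 higher and 7 lower), and moved the median of all genes from 0.02 to -0.10 at 24 h between the populations and from -0.05 to -0.17 for the first interaction. Only the compared groups in the fit gave 5 calls at 0 h. A replicate block within each time gave 21 calls at 0 h, 52 at 72 h and 18 for the first interaction, and no other replicate block moved a count by more than 1.5 times. The time comparisons could not be fitted with that block, since a library of one time shares it with no other time. The causes were not tested. For the members chosen for values by library, 176 called results were refitted, in 2577 refits with an adjusted p. Of these refits 0 changed direction and 197, in 42 results, lost the call, 168 of them with 1 library left out. Calls of the other members are not in these numbers. With 3085241 to 4239795 counts a library, members with few counts in a group are the least precise. Among them are Hist3h2ba, Hist2h2be and, at 0 h, Hist1h2af, Hist1h2ba, Hist1h2bk, Hist1h2bl, Hist1h2bm and Hist1h3c.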
